A study of Homo sapiens with 4 samples.

Results

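The genes described here are 36 genes of the SREBP-driven pathways of cholesterol and fatty acid synthesis. The rule gives them by name and uses no measured value, but the members were chosen with earlier results of these data known. All 36 of 36 were found among the 22637 genes of the deposited table. They fall into 20 enzymes of cholesterol synthesis, 6 genes that control the SREBP factors or sterol traffic, 7 enzymes of fatty acid synthesis and 3 genes that are known as targets of the liver X receptors (LXR).

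RNA was sequenced from 4 established human prostate adenocarcinoma cell lines, with 1 library for each line. LNCaP is an androgen-sensitive line that is castration-sensitive, while C4-2B was derived from LNCaP and is castration-resistant. LN-OlapR and 2B-OlapR were derived from LNCaP and C4-2B by about 1 year of culture in rising amounts of olaparib, an inhibitor of the DNA repair enzyme PARP, and were kept in 5 µmol/L of it. All 4 libraries are labelled untreated, and the deposited design text says that no selection agent was present at plating. Each resistant line is 1 derived line. Here LN-OlapR against LNCaP is called the LN pair and 2B-OlapR against C4-2B the 2B pair.

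As each line has 1 library, the differences below have no replicate check, and p-values were not computed. Levels are given as normalized CPM, that is, counts scaled to the library size (CPM) after TMM scaling between the 4 libraries, and differences as log2 ratios. The range in parentheses after a ratio is its 95% interval, which covers counting error only and not the spread between cultures. In place of a test, genes at least 1.5-fold apart were counted, and the same count over all genes is given as the background.

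Totals ranged from 19950537 counts in C4-2B to 26394267 in LNCaP. All 8 luminal prostate markers were detected in every library, with summed levels from 2474 to 3691 normalized CPM. Of the markers of other cell types, 1 of 3 basal, 3 of 5 fibroblast, 1 of 3 endothelial and 0 of 4 leukocyte genes were in the table, with summed levels of 0.112 to 0.557 for the basal, 8.83 to 19.0 for the fibroblast and 2.61 to 12.2 for the endothelial genes. The last 2 sums, which rest mainly on COL1A1 and on VWF, were highest in C4-2B and lowest in 2B-OlapR. Their part in the results, and that of the low total of C4-2B, was not tested.

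SREBP factors are transcription factors held in the membrane of the endoplasmic reticulum by the sterol sensor SCAP and the INSIG proteins. When sterols are scarce, SCAP carries them to the Golgi, where proteases free the active part, which enters the nucleus and raises transcription of the enzymes that make sterols and fatty acids. LXR receptors respond to oxysterols instead, raise genes of cholesterol efflux and also raise SREBF1. In prostate cancer cells, androgen is known to stimulate lipid synthesis through these factors.

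C4-2B held the lowest level of most of these genes. In bulk RNA, fewer cells that express a gene and less RNA per cell cannot be told apart. Among the 35 members whose mean level reached 1 normalized CPM, C4-2B was the lowest of the 4 libraries for 25, whereas it was the lowest for 21.4% of 15645 genes that passed the same limit. These were 16 of the 20 cholesterol enzymes, 5 of the 7 fatty acid enzymes, 3 control genes and 1 LXR target. LNCaP was the highest library for 17 of the 35 members, against 27.2% of genes.

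The members also took the smallest share of all counts in C4-2B. They held 0.713% of the counts there (Wilson 95% interval 0.709 to 0.717%) and 1.04% in 2B-OlapR (1.03 to 1.04%), beside 0.916% in LNCaP (0.913 to 0.920%) and 0.887% in LN-OlapR (0.883 to 0.891%). The cholesterol enzymes summed to 1967 normalized CPM in LNCaP against 1750.0 in LN-OlapR, and 1232 in C4-2B against 1646 in 2B-OlapR. For the fatty acid enzymes the sum was 4496 normalized CPM in C4-2B against 7085 in 2B-OlapR, and 6064 in LNCaP against 6128 in LN-OlapR. Thus, by these sums, LNCaP was highest for the first group and 2B-OlapR for the second, and C4-2B was lowest for both. The second sum includes FADS2, at 1609 normalized CPM in 2B-OlapR against 367.4 in LN-OlapR. Gene by gene, 2B-OlapR was the highest library for 1 of the 7 fatty acid enzymes, LNCaP for 3, LN-OlapR for 2 and C4-2B for 1.

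**Figure D1:**
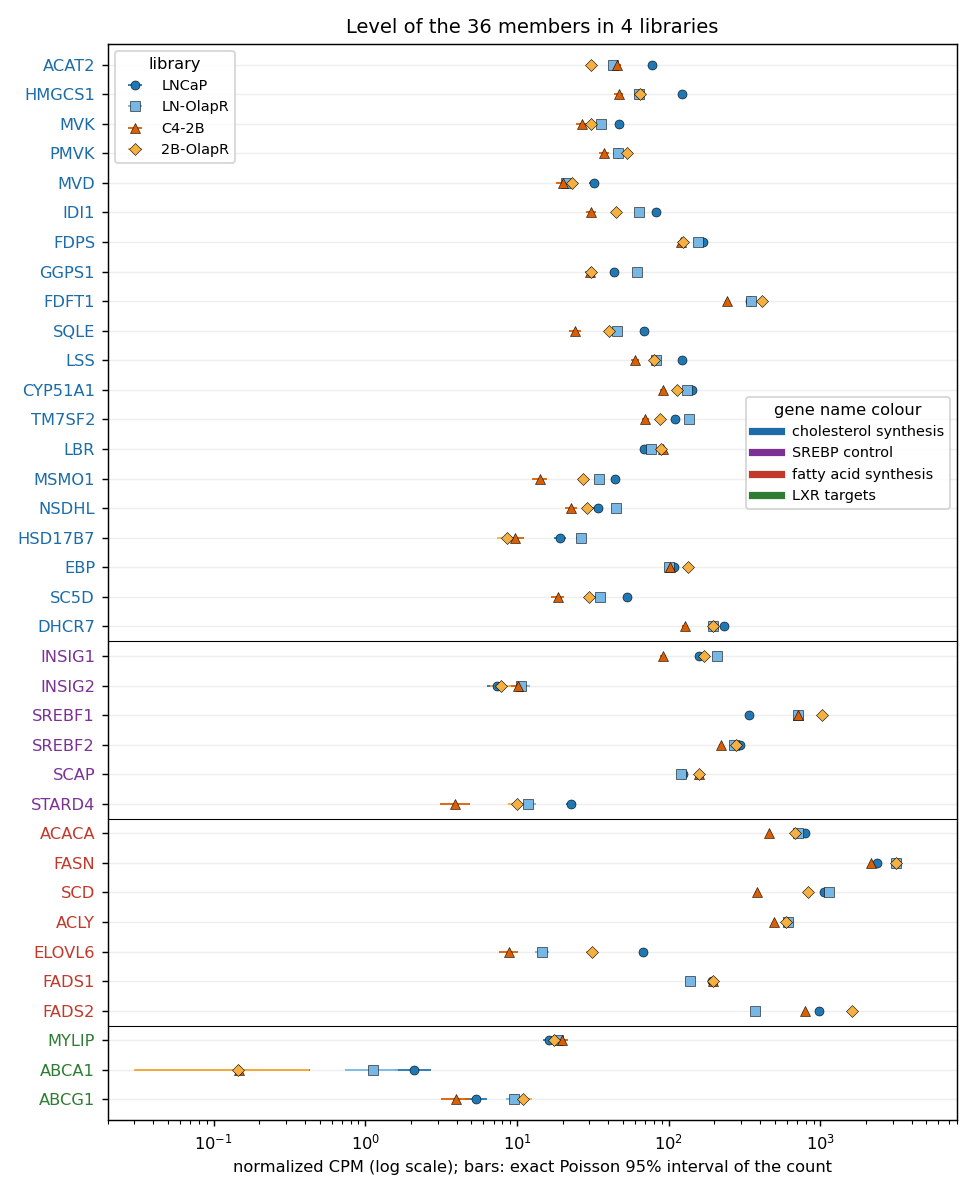
Level of each of the 36 genes in the 4 libraries, in normalized CPM on a log scale, with bars for the exact Poisson 95% interval of the count and gene names coloured by group. The red-orange triangles of C4-2B are the leftmost point for 25 of the 35 genes above the limit, and ABCA1 has 3 counts in each of the C4-2B and 2B-OlapR libraries, whose points overlap.

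In the 2B pair, most members were higher in the resistant line. Of the 35 that passed the limit, 28 were higher in 2B-OlapR and 7 lower, and their median log2 ratio was 0.40 (0.27 to 0.57 over genes), beside -0.00 over all 15527 genes. The number at least 1.5-fold higher was 11, where 10.7% of all genes were, and 0 members were at least 1.5-fold lower, where 13.5% of all genes were. The 11 were the cholesterol enzymes FDFT1, SQLE, MSMO1, SC5D and DHCR7, the control genes INSIG1 and STARD4, the fatty acid enzymes SCD, ELOVL6 and FADS2, and the LXR target ABCG1. By group, the median was 0.37 for cholesterol synthesis (17 higher and 3 lower), 0.57 for fatty acid synthesis (6 higher and 1 lower) and 0.42 for SREBP control (4 higher and 2 lower).

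In the LN pair, more members were lower in the resistant line than higher. The counts were 13 higher and 23 lower among the 36, with a median log2 ratio of -0.11 (-0.40 to 0.09), beside -0.00 over all 15373 genes. At least 1.5-fold higher in LN-OlapR were 2 members, SREBF1 and ABCG1, where 10.6% of all genes were. At least 1.5-fold lower were 9 members, where 10.8% of all genes were, and these were ACAT2, HMGCS1, MVD, SQLE, SC5D, STARD4, ELOVL6, FADS2 and ABCA1. Cholesterol synthesis had a median of -0.18 (-0.57 to 0.03 over genes, 6 higher and 14 lower). That of fatty acid synthesis was -0.14 (-2.22 to 0.42, 2 higher and 5 lower). For SREBP control it was 0.17 (3 higher and 3 lower), and -0.04 when genes under a mean of 10 normalized CPM were left out.

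C4-2B was set against LNCaP to compare the castration-resistant line with the one it came from. In this comparison, 30 of 36 members were lower in C4-2B and 6 higher, with a median log2 ratio of -0.64 (-0.86 to -0.42), beside -0.02 over all 15580 genes. The number at least 1.5-fold lower was 19, where 16.1% of all genes were, and 1 member, SREBF1, was at least 1.5-fold higher, where 16.1% of all genes were as well. The 30 and the 19 both include ABCA1, at 0.147 normalized CPM in C4-2B against 2.08 in LNCaP. ABCA1 reached the limit on the mean only through LNCaP, so its place among the lower genes was fixed by that limit. Of the 20 cholesterol enzymes, 19 were lower and 13 of them at least 1.5-fold, with a median of -0.73 (-1.02 to -0.53), and LBR was the member of that group that was higher. Of the fatty acid enzymes, 6 of 7 were lower, with a median of -0.32.

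Between the resistant lines the median of these genes lay close to 0. For 2B-OlapR against LN-OlapR, 13 of 35 members were higher and 22 lower, with a median log2 ratio of -0.07 (-0.25 to 0.04), beside -0.01 over all 15539 genes. At least 1.5-fold higher in 2B-OlapR were ELOVL6 and FADS2, that is 2 members, where 17.8% of all genes were. At least 1.5-fold lower were 4 members, GGPS1, TM7SF2, NSDHL and HSD17B7, where 20.0% of all genes were. By group, the median was -0.22 for cholesterol synthesis (6 higher and 14 lower), -0.00 for fatty acid synthesis (3 higher and 4 lower) and -0.10 for SREBP control (3 higher and 3 lower), and the last of these changed sign, to 0.04, when genes under that mean of 10 were left out. The comparisons share libraries (C4-2B stands in the 2B pair and in the comparison of parental lines, LNCaP in the LN pair and the same comparison), so that a low count in C4-2B enters both of its comparisons.

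**Figure D2:**
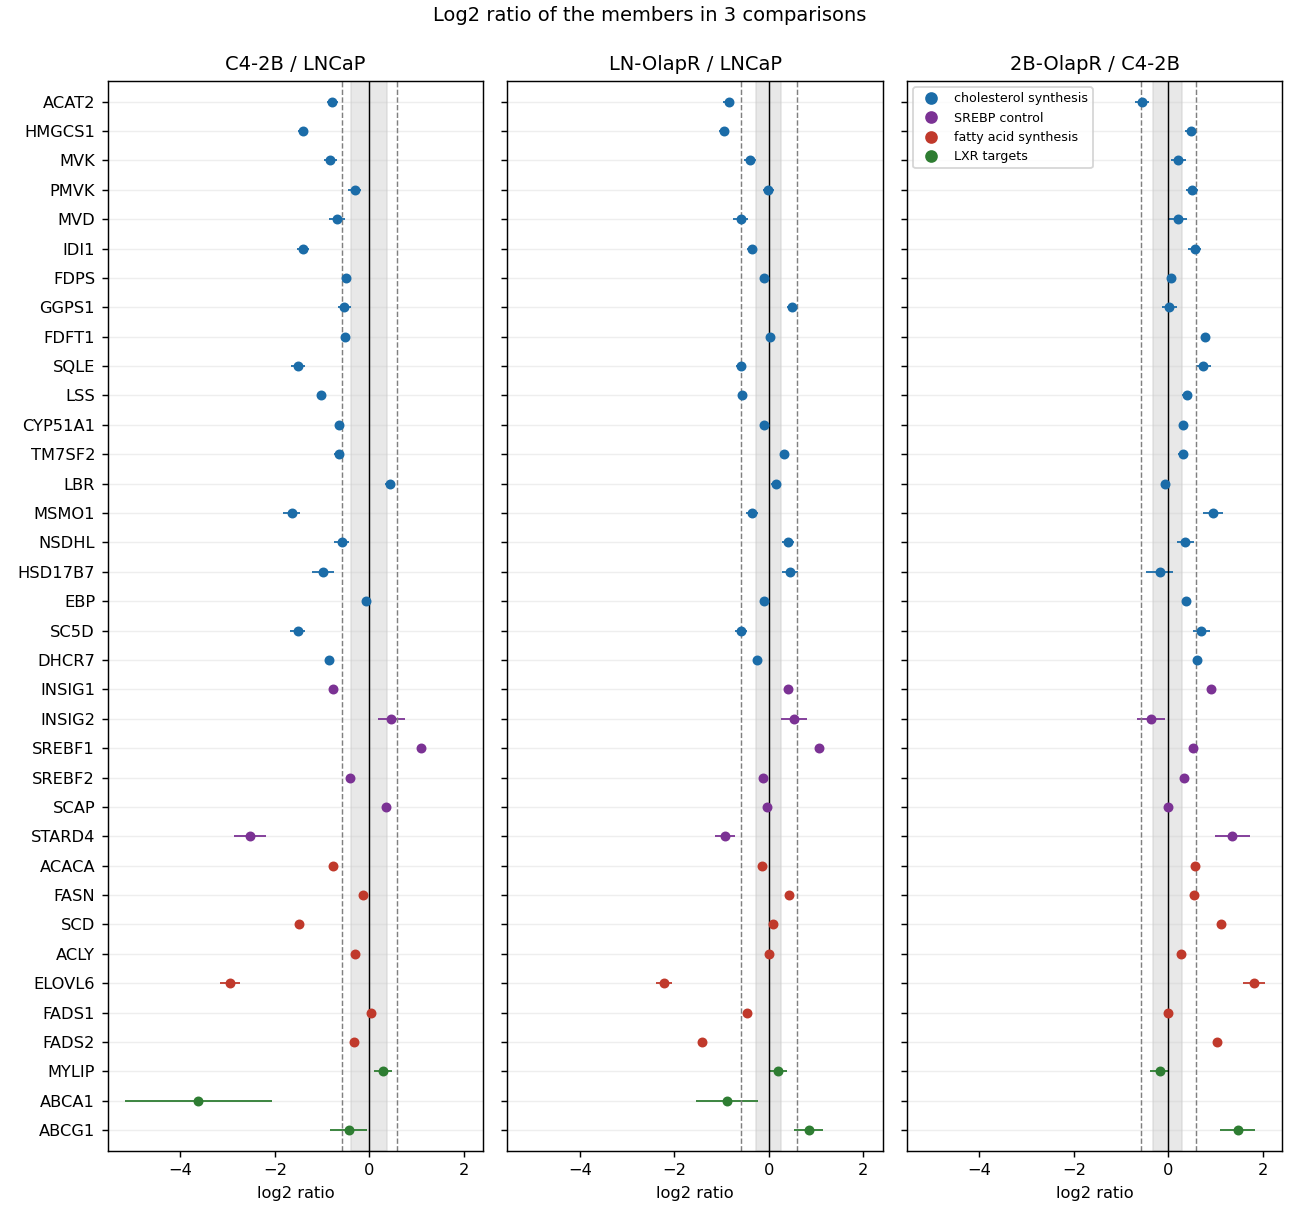
Log2 ratio of each gene in the comparison of the parental lines (left), the LN pair (middle) and the 2B pair (right), on one scale, with bars for the 95% counting interval. The dashed lines mark 1.5-fold and the grey band the middle 50% of all genes; 19 points lie beyond the left dashed line in the left panel, 9 in the middle panel and 0 in the right panel, where ABCA1 is not drawn.

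The enzymes from acetyl-CoA to farnesyl diphosphate were mostly highest in LNCaP. HMGCS1 makes the precursor of mevalonate, and its level was 122.9 normalized CPM in LNCaP against 63.2 in LN-OlapR, and 46.7 in C4-2B against 64.8 in 2B-OlapR. It was 1.94-fold lower in LN-OlapR than in parental LNCaP, a log2 ratio of -0.96 (-1.05 to -0.87), and 2.63-fold lower in C4-2B than in LNCaP, -1.40 (-1.50 to -1.29), whereas in the 2B pair it was higher in the resistant line, 0.47 (0.35 to 0.59). IDI1, the isomerase that makes the reactive isoprene unit, was measured at 30.7 normalized CPM in C4-2B against 45.1 in 2B-OlapR, and 81.9 in LNCaP against 63.7 in LN-OlapR. Its ratio was -1.41 (-1.54 to -1.29) between the parental lines, -0.36 (-0.46 to -0.27) in the LN pair and 0.55 (0.41 to 0.70) in the 2B pair. LNCaP therefore stood above the other 3 libraries for HMGCS1 and IDI1, and C4-2B below them.

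ACAT2, the cytosolic thiolase of the first step, was lower in both resistant lines. Its level was 78.04 and 43.2 normalized CPM in LNCaP and LN-OlapR, and 45.3 and 30.8 in C4-2B and 2B-OlapR, so that it was lower in the resistant line of each pair, with log2 ratios of -0.85 (-0.96 to -0.75) in the LN pair and -0.56 (-0.70 to -0.41) in the 2B pair. ACAT2 shares 397 exon bases with TCP1 on the opposite strand, a chaperonin gene at 422.1 to 629.1 normalized CPM that was also highest in LNCaP and lowest in 2B-OlapR. On that strand ACAT2 also shares 1141 exon bases with SOD2 and 1458 with SOD2-OT1. Whether the counting used strand is not given in the sources used here, so the values of ACAT2 are uncertain. The mevalonate kinase MVK was measured at 47.3 normalized CPM in LNCaP against 35.8 in LN-OlapR, and 26.7 in C4-2B against 30.9 in 2B-OlapR. MVK shares 306 exon bases on the opposite strand with MMAB, so its values are uncertain as well. MMAB had 65.3 to 88.0 normalized CPM and was also highest in LNCaP and lowest in C4-2B. The next kinase of the chain, PMVK, was measured at 37.3 normalized CPM in C4-2B against 52.8 in 2B-OlapR, and 46.4 in LNCaP against 45.96 in LN-OlapR. For MVD, the decarboxylase, the level was 31.95 and 21.1 normalized CPM in LNCaP and LN-OlapR, and 19.99 and 23.1 in C4-2B and 2B-OlapR. MVK and MVD followed the order of HMGCS1 in that LNCaP was highest and C4-2B lowest, whereas PMVK was highest in 2B-OlapR. In the LN pair the ratio was -0.40 (-0.53 to -0.28) for MVK, -0.01 (-0.13 to 0.10) for PMVK and -0.60 (-0.76 to -0.44) for MVD. In the 2B pair it was 0.21 (0.05 to 0.38) for MVK, 0.50 (0.37 to 0.63) for PMVK and 0.21 (0.02 to 0.40) for MVD.

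The synthases at the branch point of the pathway differed from one another. FDPS, which makes farnesyl diphosphate, was measured at 168.6 normalized CPM in LNCaP against 156.3 in LN-OlapR, and 120.1 in C4-2B against 124.4 in 2B-OlapR, with small ratios of 0.05 (-0.03 to 0.13) in the 2B pair beside -0.11 (-0.17 to -0.05) in the LN pair. GGPS1, which extends it for protein prenylation and so leads away from sterols, was measured at 30.3 normalized CPM in C4-2B against 30.6 in 2B-OlapR, and 43.7 in LNCaP against 61.6 in LN-OlapR. GGPS1 was higher in LN-OlapR than in parental LNCaP, 0.49 (0.38 to 0.61), and level in the 2B pair, 0.01 (-0.15 to 0.17). It shares 1422 exon bases on the same strand with TBCE, at 18.9 to 26.5 normalized CPM, so reads may have been split between them. FDFT1, the squalene synthase that commits the pathway to sterols, was the most abundant cholesterol enzyme per transcript length, and its level was 343.1 and 350.7 normalized CPM in LNCaP and LN-OlapR, and 241.3 and 413.1 in C4-2B and 2B-OlapR. It was 1.71-fold higher in 2B-OlapR than in parental C4-2B, 0.78 (0.73 to 0.83), and about equal in the LN pair, 0.03 (-0.01 to 0.07).

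Enzymes from squalene to lanosterol were lowest in C4-2B. SQLE, squalene epoxidase, an oxygen-requiring rate-limiting enzyme, was measured at 68.7 normalized CPM in LNCaP against 45.6 in LN-OlapR, and 24.1 in C4-2B against 40.2 in 2B-OlapR. It was 2.85-fold lower in C4-2B than in LNCaP, -1.51 (-1.65 to -1.37), 1.67-fold higher in 2B-OlapR than in parental C4-2B, 0.74 (0.58 to 0.90), and 1.51-fold lower in LN-OlapR than in parental LNCaP, -0.59 (-0.70 to -0.48). LSS, which closes the rings to lanosterol, was measured at 60.1 normalized CPM in C4-2B against 79.3 in 2B-OlapR, and 121.8 in LNCaP against 81.8 in LN-OlapR. The order of the libraries was the same as for SQLE, with log2 ratios of -1.02 (-1.11 to -0.92) between the parental lines, -0.57 (-0.66 to -0.49) in the LN pair and 0.40 (0.29 to 0.51) in the 2B pair. For LSS, LN-OlapR and 2B-OlapR did not differ beyond counting error, -0.04 (-0.14 to 0.05).

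Of the enzymes that turn lanosterol into cholesterol, MSMO1 and SC5D differed the most between the parental lines. MSMO1, which removes the methyl groups at carbon C4, was measured at 44.2 and 34.6 normalized CPM in LNCaP and LN-OlapR, and 14.1 and 27.2 in C4-2B and 2B-OlapR. It was 3.12-fold lower in C4-2B than in LNCaP, -1.64 (-1.83 to -1.46), and 1.93-fold higher in 2B-OlapR than in parental C4-2B, 0.95 (0.74 to 1.15). SC5D, a sterol desaturase, was measured at 52.9 normalized CPM in LNCaP against 35.03 in LN-OlapR, and 18.5 in C4-2B against 29.97 in 2B-OlapR, with ratios of -1.52 (-1.68 to -1.35) between the parental lines, 0.70 (0.51 to 0.88) in the 2B pair beside -0.59 (-0.72 to -0.47) in the LN pair. DHCR7, a reductase of the last steps, was measured at 128.0 normalized CPM in C4-2B against 194.6 in 2B-OlapR, and 232.8 in LNCaP against 195.8 in LN-OlapR. DHCR7 was 1.52-fold higher in 2B-OlapR than in parental C4-2B, 0.60 (0.53 to 0.68), which lies close to the limit of 1.5-fold and came to 0.56, below it, when libraries were scaled by total counts, and the resistant lines did not differ beyond counting error, -0.01 (-0.07 to 0.05).

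CYP51A1 shared the order of MSMO1 with smaller differences, while TM7SF2 and LBR did not. CYP51A1, the lanosterol demethylase, was measured at 142.9 and 132.3 normalized CPM in LNCaP and LN-OlapR, and 91.7 and 113.4 in C4-2B and 2B-OlapR. This gave 0.31 (0.22 to 0.39) in the 2B pair beside -0.11 (-0.18 to -0.04) in the LN pair. CYP51A1 shares 2844 exon bases on the same strand with AC000120.2, for which no level was available, so its values are uncertain. TM7SF2 and LBR are both sterol reductases of the same step, and LBR is also a receptor of the nuclear lamina. TM7SF2 was measured at 110.1 normalized CPM in LNCaP against 136.5 in LN-OlapR, and 70.2 in C4-2B against 87.01 in 2B-OlapR, and was higher in the resistant line of each pair by the same log2 ratio, 0.31 (0.24 to 0.38) in the LN pair and 0.31 (0.21 to 0.41) in the 2B pair. LBR was measured at 92.3 normalized CPM in C4-2B against 88.3 in 2B-OlapR, and 68.6 in LNCaP against 75.9 in LN-OlapR, and it was the cholesterol enzyme with a higher level in C4-2B than in LNCaP, 0.43 (0.33 to 0.52). Both lines of the 2B pair thus lay above those of the LN pair for LBR and below them for TM7SF2.

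NSDHL and HSD17B7, which act with MSMO1 in demethylation, were highest in LN-OlapR. The level of NSDHL was 33.96 and 44.9 normalized CPM in LNCaP and LN-OlapR, and 22.7 and 29.1 in C4-2B and 2B-OlapR. For HSD17B7 it was 19.2 normalized CPM in LNCaP against 26.4 in LN-OlapR, and 9.72 in C4-2B against 8.54 in 2B-OlapR. NSDHL was higher in the resistant line of each pair, 0.40 (0.28 to 0.53) in the LN pair and 0.36 (0.18 to 0.53) in the 2B pair. HSD17B7 was 3.08-fold lower in 2B-OlapR than in LN-OlapR, -1.62 (-1.86 to -1.38), and its ratio in the 2B pair was within counting error of 0, -0.19 (-0.48 to 0.11). A close copy, HSD17B7P2, was listed at 1.01 to 2.90 normalized CPM, so its reads could have been shared. EBP, a sterol isomerase, was measured at 102.6 normalized CPM in C4-2B against 133.0 in 2B-OlapR, and 107.7 in LNCaP against 99.6 in LN-OlapR, and was highest in 2B-OlapR, with 0.37 (0.29 to 0.46) in the 2B pair.

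The genes of the SREBP factors themselves went separate ways. SREBF1, which encodes the factor that mainly drives fatty acid genes, lies on chromosome 17 from 17810399 to 17837002 on the minus strand in the GENCODE 29 annotation of GRCh38. Its level was 336.8 and 706.8 normalized CPM in LNCaP and LN-OlapR, and 714.1 and 1017 in C4-2B and 2B-OlapR, so LNCaP was the lowest library and 2B-OlapR the highest. SREBF1 was 2.10-fold higher in LN-OlapR than in parental LNCaP, 1.07 (1.03 to 1.11), 2.12-fold higher in C4-2B than in LNCaP, 1.08 (1.05 to 1.12), and 1.42-fold higher in 2B-OlapR than in parental C4-2B, 0.51 (0.48 to 0.54). Of the 36 genes it was the one that was higher by at least 1.5-fold between the parental lines. SREBF1 shares 556 exon bases on the opposite strand with RAI1, at 117.6 to 177.2 normalized CPM. SREBF2, which encodes the factor that mainly drives cholesterol genes, was measured at 293.6 normalized CPM in LNCaP against 267.8 in LN-OlapR, and 220.2 in C4-2B against 275.6 in 2B-OlapR. Its range was narrower, with ratios of -0.42 (-0.47 to -0.36) between the parental lines, 0.32 (0.27 to 0.38) in the 2B pair beside -0.13 (-0.18 to -0.08) in the LN pair, and C4-2B was its lowest library.

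The sterol sensor SCAP differed within each pair by less than counting error. Its level was 158.5 normalized CPM in C4-2B against 158.5 in 2B-OlapR, and 124.9 in LNCaP against 121.1 in LN-OlapR, with ratios of -0.00 (-0.07 to 0.07) in the 2B pair beside -0.04 (-0.12 to 0.03) in the LN pair, and it was higher in C4-2B than in LNCaP, 0.34 (0.27 to 0.41). INSIG1, which retains SCAP in the endoplasmic reticulum and is itself a SREBP target, was measured at 157.9 and 207.6 normalized CPM in LNCaP and LN-OlapR, and 92.02 and 171.6 in C4-2B and 2B-OlapR. INSIG1 was higher in the resistant line of each pair, 1.86-fold in the 2B pair, 0.90 (0.82 to 0.98), and 1.31-fold in the LN pair, 0.39 (0.33 to 0.45). Its relative INSIG2 had far lower levels, 7.37 normalized CPM in LNCaP against 10.7 in LN-OlapR, and 10.2 in C4-2B against 7.82 in 2B-OlapR, and differed in the opposite direction in the 2B pair, -0.38 (-0.67 to -0.08), with 0.53 (0.27 to 0.80) in the LN pair.

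STARD4 carries cholesterol between membranes and is a known target of SREBF2. It lies on chromosome 5 from 111496033 to 111512590 on the minus strand. Its counts were 609 and 277 in LNCaP and LN-OlapR and 80 and 207 in C4-2B and 2B-OlapR, or 3.91 normalized CPM in C4-2B against 9.99 in 2B-OlapR, and 22.7 in LNCaP against 11.9 in LN-OlapR. STARD4 was 5.76-fold lower in C4-2B than in LNCaP, -2.53 (-2.86 to -2.19), and 2.55-fold higher in 2B-OlapR than in parental C4-2B, 1.35 (0.98 to 1.72), whereas in the LN pair it was 1.91-fold lower in the resistant line, -0.93 (-1.14 to -0.73). The low levels gave it wider intervals than most members, and the resistant lines did not differ beyond counting error, -0.25 (-0.51 to 0.01). STARD4 shares 124 exon bases on the opposite strand with STARD4-AS1, at 2.64 to 8.18 normalized CPM and also highest in LNCaP. Reads from one could count for the other if strand was not used.

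FASN, FADS2 and SCD were the most abundant members. Per kilobase of the longest annotated transcript, the mean level over the 4 libraries was 316.5 normalized CPM for FASN, 184.6 for FADS2, 158.2 for SCD and 132.8 for ACLY, beside 149.1 for SREBF1 and 126.7 for FDFT1. FASN, the fatty acid synthase, alone took 0.241% of all counts in LNCaP against 0.303% in LN-OlapR, and 0.223% in C4-2B against 0.314% in 2B-OlapR, with Wilson 95% intervals no wider than from 0.312 to 0.316% in 2B-OlapR. Its level was 2365 and 3156 normalized CPM in LNCaP and LN-OlapR, and 2169.6 and 3151 in C4-2B and 2B-OlapR. FASN was higher in the resistant line of each pair, 0.54 (0.52 to 0.56) in the 2B pair beside 0.42 (0.40 to 0.43) in the LN pair, and neither the parental nor the resistant lines were far apart, -0.12 (-0.14 to -0.11) and -0.00 (-0.02 to 0.01).

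The enzymes that supply FASN were lowest in C4-2B. ACLY, which makes cytosolic acetyl-CoA from citrate, was measured at 610.5 normalized CPM in LNCaP against 607.7 in LN-OlapR, and 492.7 in C4-2B against 593.6 in 2B-OlapR. ACACA, which makes malonyl-CoA, was measured at 459.9 normalized CPM in C4-2B against 680.8 in 2B-OlapR, and 786.5 in LNCaP against 713.4 in LN-OlapR, and for both genes the other 3 libraries lay closer to one another than to C4-2B. The log2 ratio of ACACA was -0.77 (-0.81 to -0.74) between the parental lines and 0.57 (0.53 to 0.60) in the 2B pair, just under the limit of 1.5-fold, and that of ACLY in the 2B pair was 0.27 (0.23 to 0.31). In the LN pair the ratios were -0.14 (-0.17 to -0.11) for ACACA and -0.01 (-0.04 to 0.03) for ACLY.

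SCD, the desaturase that makes oleate from stearate, was lowest in C4-2B. Its level was 1061 and 1130.0 normalized CPM in LNCaP and LN-OlapR, and 379.6 and 822.4 in C4-2B and 2B-OlapR, 2.79-fold lower in C4-2B than in LNCaP, -1.48 (-1.52 to -1.45), and 2.17-fold higher in 2B-OlapR than in parental C4-2B, 1.12 (1.08 to 1.15). The lines of the LN pair differed little, 0.09 (0.07 to 0.12). ELOVL6, which elongates palmitate to stearate and lies on chromosome 4 from 110045846 to 110199199 on the minus strand, had the widest spread of the fatty acid enzymes. Its level was 68.1 normalized CPM in LNCaP against 14.6 in LN-OlapR, and 8.80 in C4-2B against 30.98 in 2B-OlapR, so that LNCaP and 2B-OlapR were high and LN-OlapR and C4-2B low. ELOVL6 was 4.65-fold lower in LN-OlapR than in parental LNCaP, -2.22 (-2.38 to -2.05), 7.72-fold lower in C4-2B than in LNCaP, -2.95 (-3.17 to -2.73), and 3.52-fold higher in 2B-OlapR than in parental C4-2B, 1.81 (1.58 to 2.05).

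FADS1 and FADS2 desaturate polyunsaturated fatty acids and are neighbours, FADS1 on chromosome 11 from 61799625 to 61829318 on the minus strand and FADS2 on chromosome 11 from 61792980 to 61867354 on the plus strand. The order of the libraries differed between them. FADS2 was measured at 788.6 normalized CPM in C4-2B against 1609 in 2B-OlapR, and 981.1 in LNCaP against 367.4 in LN-OlapR, and was 4.38-fold higher in 2B-OlapR than in LN-OlapR, 2.13 (2.10 to 2.17). Within the pairs FADS2 was 2.04-fold higher in 2B-OlapR than in parental C4-2B, 1.03 (1.002 to 1.06), and 2.67-fold lower in LN-OlapR than in parental LNCaP, -1.42 (-1.45 to -1.38). FADS1 was measured at 192.0 and 139.0 normalized CPM in LNCaP and LN-OlapR, and 196.5 and 196.4 in C4-2B and 2B-OlapR, with a low value in LN-OlapR, -0.47 (-0.53 to -0.40), and a ratio within counting error of 0 in the 2B pair, -0.00 (-0.06 to 0.06). Their exons overlap by 490 bases on opposite strands, so reads from one could count for the other if strand was not used.

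**Figure D3:**
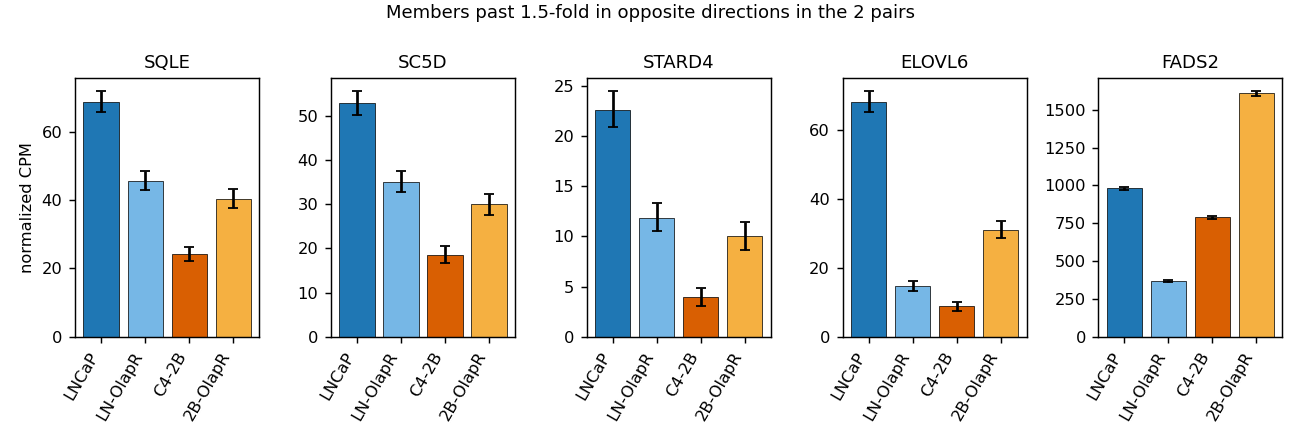
Bars give the level in the 4 libraries, in normalized CPM on a linear axis of its own for each gene, with exact Poisson 95% intervals, of the 5 genes that were at least 1.5-fold apart in opposite directions in the pairs: SQLE, SC5D, STARD4, ELOVL6 and FADS2. In each panel the level is lower in LN-OlapR than in parental LNCaP and higher in 2B-OlapR than in parental C4-2B.

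The LXR targets are listed apart, as they respond to sterol excess. ABCG1, a sterol exporter, was measured at 5.36 normalized CPM in LNCaP against 9.60 in LN-OlapR, and 3.96 in C4-2B against 10.96 in 2B-OlapR, and was higher in the resistant line of each pair, 2.76-fold in the 2B pair, 1.46 (1.10 to 1.83), and 1.79-fold in the LN pair, 0.84 (0.54 to 1.14). ABCA1, the exporter that loads cholesterol on apolipoproteins, was close to the floor, with 56 counts in LNCaP against 26 in LN-OlapR and 3 counts in each line of the 2B pair. No ratio is given for ABCA1 in the 2B pair. In the LN pair its log2 ratio was -0.89 (-1.55 to -0.22), and between the parental lines -3.62 (-5.18 to -2.06), a wide interval as C4-2B had 3 counts. MYLIP, a ubiquitin ligase for lipoprotein receptors, was measured at 19.8 normalized CPM in C4-2B against 17.4 in 2B-OlapR, and 16.2 in LNCaP against 18.6 in LN-OlapR, with ratios of -0.18 (-0.39 to 0.02) in the 2B pair beside 0.19 (0.00 to 0.39) in the LN pair.

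The pairs share no library, so that their ratios were also set against each other. A gene highest in LNCaP and lowest in C4-2B is, by that order, lower in LN-OlapR and higher in 2B-OlapR than in the parental line. The counts below therefore restate in part the library orders given above, as for HMGCS1, SQLE and ELOVL6. Of the 35 members that passed the limit in both pairs, 19 were higher in 2B-OlapR and lower in LN-OlapR than in the respective parental line, where 21.2% of 14602 genes did so. The reverse held for 4 members, while 9 were higher in both resistant lines and 3 lower in both. The share of all genes was not computed for these other classes, so their counts have no background. Some members were placed by a ratio within counting error of 0 in a pair. These were SCAP and FADS1 among those lower in both, and GGPS1 and FDFT1 among those higher in both. They were also FDPS, PMVK and ACLY among the 19, and LBR, HSD17B7 and MYLIP among the 4. The 19 included 13 of the 20 cholesterol enzymes, 4 of the 7 fatty acid enzymes and 2 of the 6 control genes. Signs differed for 23 of the 35 members and for 42.4% of genes. These counts describe the 4 libraries, and no test of them was made.

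At least 1.5-fold apart in opposite directions were 5 members, where 1.34% of genes were at least 1.5-fold higher in 2B-OlapR and lower in LN-OlapR. The difference between the log2 ratios of the pairs was 4.03 (3.74 to 4.32) for ELOVL6, 2.45 (2.40 to 2.49) for FADS2 and 2.28 (1.85 to 2.70) for STARD4. It was 1.33 (1.14 to 1.53) for SQLE and 1.29 (1.07 to 1.51) for SC5D, and with DESeq2 size factors the ratio of SQLE in the LN pair was -0.58, just inside 1.5-fold, which left the other 4. HMGCS1, at 1.43 (1.28 to 1.58), and MSMO1, at 1.30 (1.06 to 1.54), had differences of similar size but stayed under the limit in 1 of the pairs. For TM7SF2 the difference was 0.00 (-0.12 to 0.12) and for NSDHL -0.05 (-0.26 to 0.17), both within counting error of 0.

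**Figure D4:**
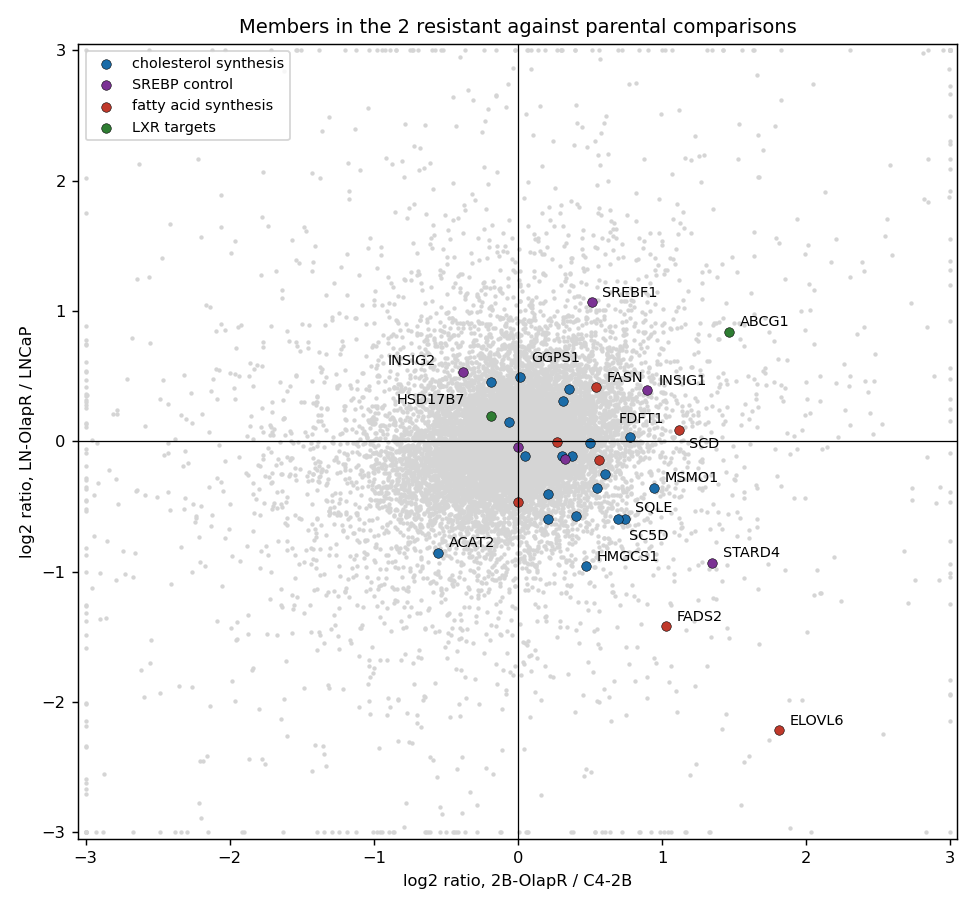
Log2 ratio in the 2B pair (x axis) against that in the LN pair (y axis) for the members, coloured by group, with all 14602 genes that passed the limit in both pairs in grey and clipped at 3 in each direction. The lower right corner, higher in 2B-OlapR and lower in LN-OlapR, holds 19 of the 35 members, with ELOVL6 farthest out at 1.81 and -2.22.

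The promoters of the members were searched for the motifs of the SREBP factors and of the factors known to act beside them. RefSeq promoter windows on GRCh38.p14, from 250 bases before to 50 after a transcription start, were matched by symbol for 31 of the 36 genes, and ACAT2, FDFT1, SQLE, FASN and ABCG1 had none. Both strands were searched, and a gene was counted if any of its windows held the motif. An exact match to the sterol regulatory element TCACNCCAC was found in 1 of 31 members, SREBF2, and in 1.39% of 27305 genes. Variants of these letters were not searched, so a gene without a match may still hold such an element. The NF-Y box CCAAT was found in 22 of 31 members (71.0%) and in 39.7% of all genes, or 43.4% of the 10681 genes expressed at a mean of 1 normalized CPM or more. A window with 2 or more NF-Y boxes was found in 15 members (48.4%), in 12.9% of all genes and in 16.9% of the expressed ones. In the cholesterol group 14 of 17 genes had an NF-Y box, and MVK and NSDHL had a window with 5. The GC box GGGCGG was found in 29 of 31 members (93.5%), beside 48.3% of all and 76.7% of expressed genes, and the E-box CACGTG in 5 of 31 (16.1%), beside 8.77% and 12.8%. No other motif was searched, matches that overlap one another were counted separately, as for NF-Y boxes on opposite strands in IDI1 and NSDHL, and a match is a description of the letters, not a bound site.

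Stretches of 6 of these promoters are shown. SREBF2 holds the sterol regulatory element, and HMGCS1, MSMO1, STARD4 and SCD hold NF-Y boxes. ELOVL6, whose log2 ratio differed the most between the pairs, has neither motif. All 6 genes, with or without an NF-Y box, have their lowest level in C4-2B, and a link between motif and level was not tested. Each is the longest stretch of the 250 bases before the start that lies outside annotated untranslated exons, 5′ to 3′ along the gene, with the sterol regulatory element and the NF-Y boxes (CCAAT, or ATTGG where the box lies on the other strand) in capitals.
SREBF2 (chr22:41832855-41833078, plus strand): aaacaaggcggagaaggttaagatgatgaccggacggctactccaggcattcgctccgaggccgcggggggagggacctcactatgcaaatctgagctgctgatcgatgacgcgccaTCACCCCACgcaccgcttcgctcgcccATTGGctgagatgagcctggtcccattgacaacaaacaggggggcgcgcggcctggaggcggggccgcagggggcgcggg
HMGCS1 (chr5:43313513-43313662, minus strand): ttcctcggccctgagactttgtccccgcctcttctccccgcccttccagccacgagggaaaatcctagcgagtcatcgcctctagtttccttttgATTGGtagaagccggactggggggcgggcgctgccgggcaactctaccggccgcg
MSMO1 (chr4:165327419-165327622, plus strand): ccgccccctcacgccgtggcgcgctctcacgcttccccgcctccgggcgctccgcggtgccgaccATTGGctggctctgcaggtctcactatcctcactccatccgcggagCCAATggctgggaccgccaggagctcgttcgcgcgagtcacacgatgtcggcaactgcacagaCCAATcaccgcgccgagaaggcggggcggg
STARD4 (chr5:111512591-111512785, minus strand): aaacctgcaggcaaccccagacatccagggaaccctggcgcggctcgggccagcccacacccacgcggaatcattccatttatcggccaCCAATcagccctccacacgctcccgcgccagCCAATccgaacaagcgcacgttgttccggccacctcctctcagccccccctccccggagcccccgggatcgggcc
SCD (chr10:100346983-100347123, plus strand): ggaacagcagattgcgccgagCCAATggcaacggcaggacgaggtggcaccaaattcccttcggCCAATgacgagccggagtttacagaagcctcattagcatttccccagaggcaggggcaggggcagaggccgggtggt
ELOVL6 (chr4:110198677-110198841, minus strand): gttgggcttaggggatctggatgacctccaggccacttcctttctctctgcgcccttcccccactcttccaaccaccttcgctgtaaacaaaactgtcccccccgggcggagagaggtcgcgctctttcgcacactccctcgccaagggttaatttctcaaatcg
In SREBF2 the element spans bases 133 to 125 before the start and the NF-Y box bases 106 to 102. MSMO1 shows 3 of the 4 boxes of its window, at 185, 139 and 76 bases before the start, and HMGCS1 shows 1 of 2, at 155 bases. STARD4 has boxes at 161 and 130 bases and SCD at 229 and 186 bases before the start. The ELOVL6 stretch has none.

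Other genes of the pathway were taken from fixed lists, of which the highest and lowest gene in each pair is named. The 11 genes of SREBP processing and sterol-regulated degradation were centred on 0, with a median log2 ratio of 0.02 in the 2B pair, with 6 higher and 5 lower, and of -0.03 in the LN pair, with 4 higher and 7 lower. In the 2B pair the lowest was SEC23A, a coat protein of the vesicles that carry SCAP, at 64.5 normalized CPM in 2B-OlapR against 99.1 in C4-2B, a log2 ratio of -0.62 (-0.72 to -0.52), and the highest its partner SEC24A, at 93.05 normalized CPM in 2B-OlapR against 65.7 in C4-2B, a log2 ratio of 0.50 (0.40 to 0.60). In the LN pair the lowest was SAR1A, the GTPase of the same coat, at 88.6 normalized CPM in LN-OlapR against 121.0 in LNCaP, a log2 ratio of -0.45 (-0.53 to -0.37), and the highest ERLIN2, at 128.1 normalized CPM in LN-OlapR against 110.6 in LNCaP, a log2 ratio of 0.21 (0.14 to 0.29).

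In the list of fatty acid, glycerolipid and NADPH supply, 13 of 14 genes were in the table and passed the limit. Their median log2 ratio was -0.00 in the 2B pair, with 3 at least 1.5-fold higher and 2 lower (10.7% and 13.5% of all genes), and 0.17 in the LN pair, with 1 higher and 1 lower (10.6% and 10.8% of all genes). LPIN1, a phosphatidate phosphatase and known SREBP target, was the highest in the 2B pair at 108.1 normalized CPM in 2B-OlapR against 43.9 in C4-2B, a log2 ratio of 1.30 (1.19 to 1.41), and ACSL3, an acyl-CoA synthetase, the lowest at 236.8 normalized CPM in 2B-OlapR against 485.8 in C4-2B, a log2 ratio of -1.04 (-1.09 to -0.99). ACSL3 thus stood opposite to most fatty acid enzymes in that pair. In the LN pair the elongase ELOVL5 was the highest at 437.4 normalized CPM in LN-OlapR against 251.9 in LNCaP, a log2 ratio of 0.80 (0.75 to 0.84), and GPAM, which starts glycerolipid synthesis, the lowest at 22.3 normalized CPM in LN-OlapR against 40.3 in LNCaP, a log2 ratio of -0.85 (-1.001 to -0.70). ELOVL5, which elongates polyunsaturated chains, was higher in LN-OlapR while ELOVL6 was lower there.

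For sterol transport, storage and uptake, 12 of 13 genes passed the limit, with medians of 0.15 in the 2B pair beside 0.01 in the LN pair. NPC1, which exports cholesterol from lysosomes, was the highest in each pair, at 200.9 normalized CPM in LN-OlapR against 95.3 in LNCaP, a log2 ratio of 1.08 (1.01 to 1.14), and at 155.9 normalized CPM in 2B-OlapR against 93.4 in C4-2B, a log2 ratio of 0.74 (0.66 to 0.82). VLDLR, a lipoprotein receptor, was the lowest in the 2B pair at 7.48 normalized CPM in 2B-OlapR against 15.2 in C4-2B, a log2 ratio of -1.03 (-1.30 to -0.75), and SOAT1, which esterifies cholesterol for storage, the lowest in the LN pair at 28.4 normalized CPM in LN-OlapR against 44.5 in LNCaP, a log2 ratio of -0.65 (-0.78 to -0.51). The 10 genes of the isoprenoid branch had medians of 0.17 in the 2B pair, with 9 higher and 1 lower, and -0.12 in the LN pair, with 3 higher and 7 lower. PDSS2, a subunit of the enzyme that makes the side chain of coenzyme Q, was the highest in the 2B pair, 0.72 (0.56 to 0.89), and the lowest in the LN pair, -0.36 (-0.51 to -0.21). The farnesyltransferase subunit FNTB was the lowest in the 2B pair, -0.39 (-0.58 to -0.19), and RABGGTA, a subunit of a prenyl transferase, the highest in the LN pair, 0.34 (0.20 to 0.49).

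Of 8 LXR receptors, partners and further targets, 6 passed the limit, with medians of 0.54 in the 2B pair beside 0.09 in the LN pair. SMPDL3A, a phosphodiesterase known as an LXR target, was the highest in the 2B pair at 9.70 normalized CPM in 2B-OlapR against 4.06 in C4-2B, a log2 ratio of 1.25 (0.88 to 1.62), and the lowest in the LN pair at 5.06 normalized CPM in LN-OlapR against 11.8 in LNCaP, a log2 ratio of -1.22 (-1.52 to -0.91). NR1H2, which encodes LXR beta, was the highest in the LN pair at 77.7 normalized CPM in LN-OlapR against 56.1 in LNCaP, a log2 ratio of 0.47 (0.37 to 0.57), and NR1H3, which encodes LXR alpha, the lowest in the 2B pair at 16.4 normalized CPM in 2B-OlapR against 16.7 in C4-2B, a log2 ratio of -0.03 (-0.24 to 0.19). Thus SMPDL3A, unlike ABCG1, lay lower in LN-OlapR than in parental LNCaP.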

How the data were processed

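RNA-seq was measured in 4 untreated cell lines, 1 library each, from stranded mRNA libraries made of 100 ng of total RNA. The cells had been plated for 48 h per the deposited labels and 72 h per the study's methods. The authors deposited estimated counts per gene, not scaled between libraries. The submitters' processing notes name STAR, Partek and GRCh38 (hg38), and the annotation and strand setting are not given in the sources used here. Of the deposited values, 38.0% were more than 0.01 from a whole number, and every gene summed to at least 10.0 over the libraries. Whole counts had been assumed, so the estimated counts were rounded.

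Scaling factors were computed by TMM (edgeR 4.0.16, R 4.3.3). Later steps used Python 3.11.15, numpy 2.4.6, pandas 2.3.3, SciPy 1.17.1 and matplotlib 3.10.9. Log2 ratios used a pseudocount of 0.5 counts, and genes were used whose mean over the compared libraries reached 1 normalized CPM. No ratio was given where neither library exceeded 3 counts. Intervals at the 95% level are normal intervals of the counts for ratios, exact Poisson intervals for levels, Wilson intervals for shares and binomial intervals over genes for medians. All 36 members are named, and of the other lists the highest and lowest gene of each pair. Members and lists were chosen with earlier results of these data known. Overlapping genes and lengths came from GENCODE 29. As alternatives, libraries were scaled by upper quartile factors, by the size factors of DESeq2 1.42.0 or by totals, the pseudocount was set to 2, the limit on the mean to 0.1 or 10 and the fold limit to 2. The ratio step was tested on simulated Poisson counts, which hold counting error only. This checks the calculation and not the spread between cultures.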

Additional observations from a re-analysis of the deposited data

Results flagged for a closer look

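In 5 genes the resistant line was at least 1.5-fold above its parent in the 2B pair and at least 1.5-fold below it in the LN pair. The log2 ratio of the 2B pair minus that of the LN pair was 1.33 (1.14 to 1.53) for SQLE, 1.29 (1.07 to 1.51) for SC5D, 2.28 (1.85 to 2.70) for STARD4, 4.03 (3.74 to 4.32) for ELOVL6 and 2.45 (2.40 to 2.49) for FADS2. As each line has 1 library, these differences were not tested, and the intervals cover counting error only.

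The group medians had opposite signs in the pairs as well. The median log2 ratio of the 2B pair exceeded that of the LN pair by 0.55 for the 20 cholesterol enzymes and by 0.71 for the 7 fatty acid enzymes. In the LN pair the interval over genes was -0.57 to 0.03 for cholesterol and -2.22 to 0.42 for fatty acid synthesis, both spanning 0. In the 2B pair it was 0.21 to 0.55 and -0.00 to 1.81. The opposite signs of the medians were not tested either.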

How the results depend on the processing

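With 1 library per line no replicate could be left out. No paired test of resistance was made, as the design holds only the LN pair and the 2B pair, with 1 library per line. Of the counts and medians of the member groups, 124 values stayed within the set margin (the interval of a median over genes, or 1.5 times a count) and 7 moved. Within that margin the sign of 3 medians changed. With a minimum mean of 10, which leaves out low genes, the median of SREBP control came to -0.04 in place of 0.17 in the LN pair and to 0.04 in place of -0.10 between the resistant lines, and between the parental lines it moved from -0.04 to -0.42. That of fatty acid synthesis between the resistant lines lay from -0.00 to 0.05. With total counts, 1 member of the 2B pair, ACAT2, was at least 1.5-fold lower. With a minimum mean of 10, 1 member was at least 1.5-fold higher in the LN pair, as ABCG1 was no longer included. With a fold limit of 2, the counts were 5 higher in the 2B pair (4.42% of all genes), 1 higher and 2 lower in the LN pair (4.64% and 4.83%), 10 lower between the parental lines (7.18%) and 2 lower between the resistant lines (9.45%). Under another scaling, the side of the 1.5-fold limit changed for ACAT2, DHCR7 and ACACA in the 2B pair, SQLE and LSS in the LN pair and NSDHL between the resistant lines. The sign changed for ratios near 0 only, those of GGPS1, SCAP and FADS1 in the 2B pair, FDFT1 and ACLY in the LN pair and LSS, DHCR7, FASN and ACLY between the resistant lines. The median over all genes lay farthest from 0 at -0.09, in the LN pair with total counts. Depth limits ABCA1, ABCG1, INSIG2 and STARD4, which had the lowest mean levels, and the difference between cultures of 1 line is unknown for every gene.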
